A study of Mus musculus with 36 samples.

Results

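Histone marks were examined at 10 of 21938 protein-coding genes: Lef1, Tcf7, Tcf7l1, Tcf7l2, Axin2, Rspo1, Rspo2, Rspo3, Rspo4 and Lgr5. They were chosen by name as the nuclear end and the R-spondin arm of canonical Wnt signalling. Chromatin immunoprecipitation sequencing (ChIP-seq) had been carried out for H2AK119ub1, H3K27me3 and H3K36me2 on whole hippocampus at postnatal day 0 (P0) and on neurospheres, floating cultures of progenitors propagated from P0 hippocampi with FGF2 and EGF. Ctrl mice were Kdm2bfl/+ or Kdm2bfl/fl, a mixture that the labels do not separate. The cKO mice, Kdm2bEmx1-delta-CxxC, lacked the CxxC zinc finger of KDM2B in cells in which Emx1-Cre had been active, which are the dorsal telencephalic progenitors and their descendants, so that blood vessels and microglia of a whole hippocampus keep the domain. Each combination of source, genotype and mark had 2 libraries, which gave 24 files of islands, the stretches in which a library exceeded its input. The labels do not say whether 2 libraries of a group came from separate animals, so p-values measure only the spread between these libraries. The share of cells that carry a mark and the amount of the mark per cell cannot be told apart in such bulk material.

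Canonical Wnt ligands stabilise β-catenin, which enters the nucleus and binds the TCF/LEF proteins LEF1, TCF7, TCF7L1 and TCF7L2 on DNA. Axin2 encodes a scaffold of the complex that destroys β-catenin and is itself a widely used target gene of the pathway. R-spondins are secreted proteins that bind LGR receptors such as LGR5 and keep Frizzled receptors at the cell surface, which strengthens the response to Wnt ligands. KDM2B recruits a variant of Polycomb repressive complex 1 (PRC1) to unmethylated CpG islands through its CxxC finger. PRC1 places H2AK119ub1 and PRC2 places H3K27me3, both found at silent developmental promoters, whereas H3K36me2 lies in gene bodies and between genes and hinders PRC2. In the developing hippocampus, Wnt signals from the cortical hem are needed for the dentate gyrus to form, and Lef1 is needed for its granule cells.

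Since the CxxC finger reads CpG sites, 4 promoter sequences are shown first, from RefSeq on build GRCm38.p6 (mm10), each the 250 bases before the most upstream RefSeq start and read 5′ to 3′ along the gene, with every CG pair in capitals. Lef1 is shown for its H3K27me3 in neurospheres, Rspo1 for H3K27me3 in every library, Tcf7l2 for marks that differ between the sources and Axin2 as a CpG-rich promoter without H3K27me3.
Lef1 (chr3:131110047-131110296, plus strand): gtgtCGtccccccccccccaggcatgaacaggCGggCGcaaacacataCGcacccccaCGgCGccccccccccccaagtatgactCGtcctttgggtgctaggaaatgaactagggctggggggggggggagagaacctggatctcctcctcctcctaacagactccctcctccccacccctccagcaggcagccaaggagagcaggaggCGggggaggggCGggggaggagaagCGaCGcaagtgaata
Rspo1 (chr4:124986180-124986429, plus strand): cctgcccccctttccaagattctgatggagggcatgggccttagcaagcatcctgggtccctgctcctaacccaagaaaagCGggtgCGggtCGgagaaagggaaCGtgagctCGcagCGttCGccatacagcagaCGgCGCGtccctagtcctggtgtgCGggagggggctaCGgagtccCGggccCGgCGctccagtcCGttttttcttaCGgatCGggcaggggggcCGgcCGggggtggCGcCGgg
Tcf7l2 (chr19:55741560-55741809, plus strand): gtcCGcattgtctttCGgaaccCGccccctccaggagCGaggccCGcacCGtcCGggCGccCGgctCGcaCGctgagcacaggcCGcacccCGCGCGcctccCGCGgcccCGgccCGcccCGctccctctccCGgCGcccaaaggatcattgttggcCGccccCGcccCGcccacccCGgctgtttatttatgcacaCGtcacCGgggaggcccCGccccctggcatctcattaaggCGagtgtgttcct
Axin2 (chr11:108920099-108920348, plus strand): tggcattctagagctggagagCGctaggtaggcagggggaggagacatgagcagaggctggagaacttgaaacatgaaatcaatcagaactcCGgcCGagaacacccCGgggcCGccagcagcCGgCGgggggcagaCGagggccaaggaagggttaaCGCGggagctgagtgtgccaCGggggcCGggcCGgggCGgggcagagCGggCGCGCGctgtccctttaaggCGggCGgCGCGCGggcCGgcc
These windows hold 11 CG pairs for Lef1, 22 for Rspo1, 30 for Tcf7l2 and 24 for Axin2, while the median over 32851 RefSeq promoter windows was 6. Of the 10 members, 7 had a RefSeq window in the sequence table used, and Rspo2, Rspo3 and Lgr5 did not. By the usual definition (GC content of at least 50% and a ratio of observed to expected CpG of at least 0.6 within 1000 bases around the start), 8 of the 10 promoters were CpG-rich, as were 44.4% of all protein-coding promoters. Rspo4 and Lgr5 were not, with ratios of 0.576 and 0.568. The TCF/LEF core CTTTGA, searched on both strands (TCAAAG on the other), was found in none of the 7 windows and in 13.8% of all windows. Tcf7 had the most CpG sites of the members, 111 in the 1000 bases, where the median over all promoters was 41.

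The libraries differed widely in counts inside islands. Total reads are not in the island files, so depth, shallow and deeper refer below to these counts. They depend on enrichment and island calling as well as on sequencing. Counts inside islands ranged from 987329 to 6799122 in hippocampus H2AK119ub1, where the first library of each genotype held 1015578 or fewer, from 1681001 to 5525016 in hippocampus H3K27me3 and from 3109819 to 4504325 in hippocampus H3K36me2. In neurospheres the H2AK119ub1 libraries held between 5025115 and 17734396, the H3K27me3 libraries between 13195590 and 17025504, and the H3K36me2 libraries between 10587042 and 22021439. A stretch that was not called has no count in the files, so 0% coverage says that no island was called at that depth and not that the mark is absent. Marker promoters were used to describe how the marks lie, and they do not identify the tissue. H3K27me3 islands lay at 10 of 10 promoters of other lineages (such as Gata4, Myod1 and Pax7) in all 4 libraries of each source. Of the promoters of dorsal telencephalic genes, 4 of 8 had no H3K27me3 in any library of a source. The other 4 had it in at least 1 library, Neurod2 in all 4 of hippocampus and Neurod2 and Emx1 in all 4 of neurospheres. Of 5 genes of glia, microglia and vessels (such as Olig2 and Cx3cr1), 2 had H3K27me3 in all 4 hippocampus libraries and 1 in all 4 neurosphere libraries. The files hold islands and not reads over the deleted exon and so cannot check the genotype. Counts of islands that overlap in any library were summed into merged regions, and those called in every library of a comparison were tested by edgeR's quasi-likelihood test. Each fold change below is on the log2 scale with its standard error (SE), over 2 Ctrl and 2 cKO libraries between genotypes and over 4 and 4 between sources. With 2 against 2 libraries an exact permutation test cannot go below p = 0.333, so for coverage the genotypes are described by whether their values overlap.

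The promoter (2 kb on each side of the GENCODE start) showed H3K27me3 at all 4 R-spondin genes and less often at the TCF/LEF genes. H3K27me3 islands reached the promoters of Rspo1 to Rspo4 in 16 of 16 gene and library pairs of hippocampus and in 16 of 16 of neurospheres, and covered the promoter fully in 12 and 13 of them. H3K36me2 touched these 4 promoters in 0 of 16 pairs in each source. At the 4 TCF/LEF promoters H3K27me3 was called in 8 of 16 pairs in hippocampus and in 5 of 16 in neurospheres, 4 of which were Lef1. Axin2 had none in any of the 8 H3K27me3 libraries, at the promoter or in the body. Of all protein-coding promoters, 8.36% had H3K27me3 in all 4 hippocampus libraries and 15.5% in all 4 neurosphere libraries, against 5 of 10 members in each source and 22 and 26 of 60 other genes of the Wnt pathway.

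**Figure D1:**
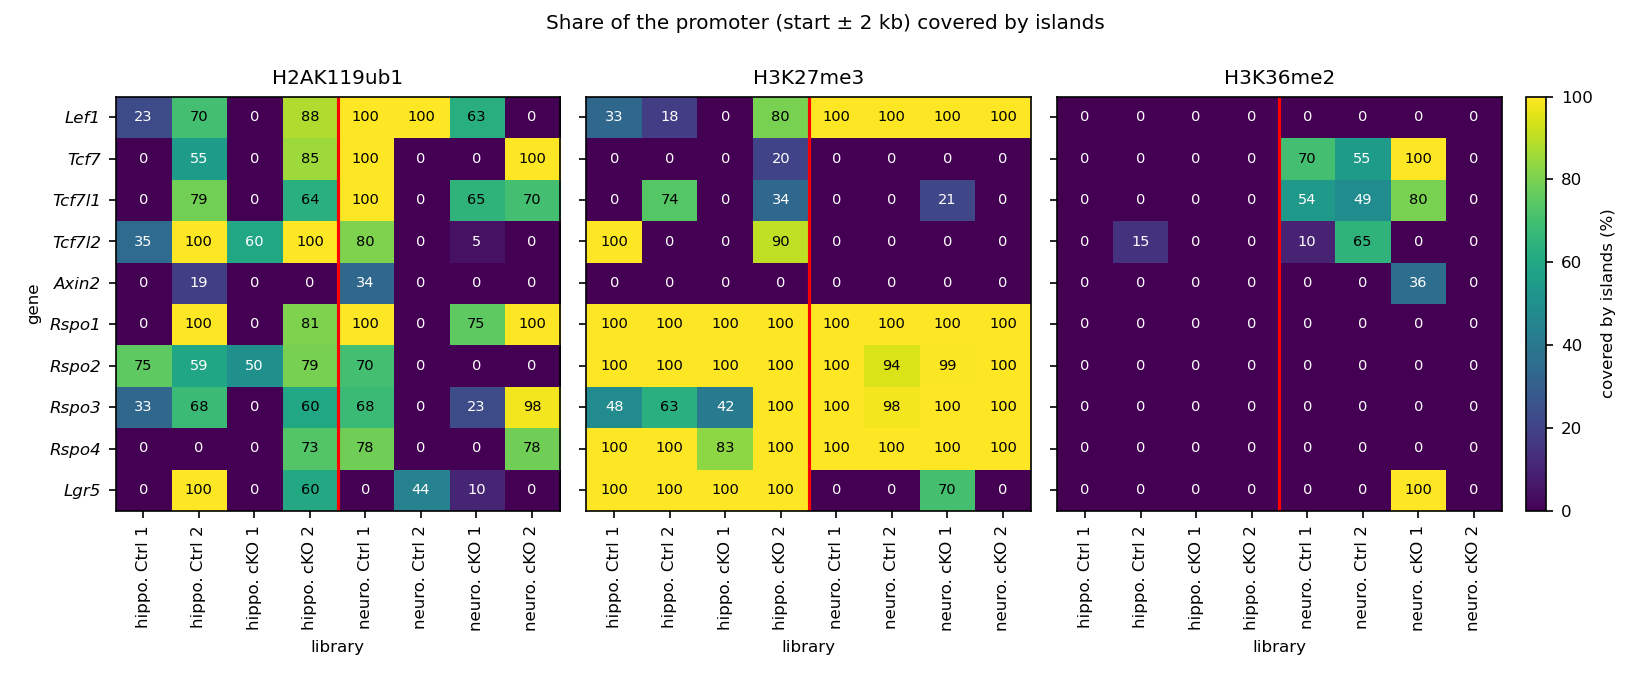
Share of each promoter (start ± 2 kb, in percent) covered by islands, for the 10 genes (rows) in the 8 libraries of each mark (columns; hippocampus left and neurospheres right of the red line). For H3K27me3 the Rspo1, Rspo2 and Rspo4 rows sit at 83.15 to 100%. Rspo3 is at 98.3 to 100% in neurospheres but ranges from 41.7 to 100% in hippocampus. All 4 R-spondin rows are at 0% for H3K36me2. Lef1 is at 100% for H3K27me3 in the 4 neurosphere libraries, and Lgr5 is at 100% in the 4 hippocampus libraries.

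Lef1, which encodes a TCF/LEF factor expressed in the dentate anlage (ENSMUSG00000027985.14, mm10 chr3:131110471-131224356, plus strand), had, of the 5 member promoter regions tested for H3K27me3 in neurospheres, the one with the largest fold change in summed counts between genotypes. In neurospheres the island lay across the start in all 4 libraries and covered 100% of the promoter in each, so that promoter coverage shows no difference. Its downstream edge lay 11.7 kb after the start in both Ctrl libraries and 3.53 and 3.73 kb after it in cKO. Its upstream edge lay 11.5 and 9.47 kb before the start in Ctrl against 9.47 and 5.07 kb before it in cKO, so the shorter cKO islands ended earlier mainly inside the gene. Farther into the gene, Ctrl had further H3K27me3 islands and cKO had none: gene body coverage was 14.0% and 17.9% in Ctrl against 3.10% and 3.28% in cKO. Lef1 and Lgr5 were the 2 of 10 members whose gene bodies were lower in both cKO libraries than in both Ctrl libraries, beside 5.78% of all genes. Rspo3 was higher without overlap, beside 6.51% of all genes.

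Density inside the Lef1 island also differed. Relative to each library's overall counts per kb in islands, it was 1.75 and 1.63 in Ctrl against 1.01 and 0.881 in cKO, so that an island with more than the usual density in Ctrl had about the usual one in cKO. Its width stood at the 79.5th and 84.3rd percentile of promoter islands in the Ctrl libraries and at the 71.2nd and 39.2nd in the cKO libraries. The summed counts of the Lef1 region gave a log2 fold change of -2.25 ± 0.35 with an adjusted p of 0.175 by edgeR (Benjamini-Hochberg, over 11262 regions), the smallest adjusted p of that comparison. It therefore did not pass the threshold of 0.05, as no region did (0% in each direction). At an unadjusted p under 0.05, 8.94% of regions were lower, Lef1 among them, and 9.5% higher, and DESeq2's Wald test called 247 lower and 487 higher. A setting chosen after seeing the data divided counts by the called length and centred each library on its median region. The Lef1 log2 fold change was then -0.93, with an adjusted p of 0.000422 by the same edgeR test. In that setting 1.82% of regions were called lower and 0.311% higher. The adjusted p of Lef1 ran from 1.73e-10 to 0.439 over all 10 alternatives, and its direction was the same in each. The alternatives that left out a library kept 1 in its group, assumed to vary like the other group. Their p-values therefore measure no spread within that group.

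**Figure D2:**
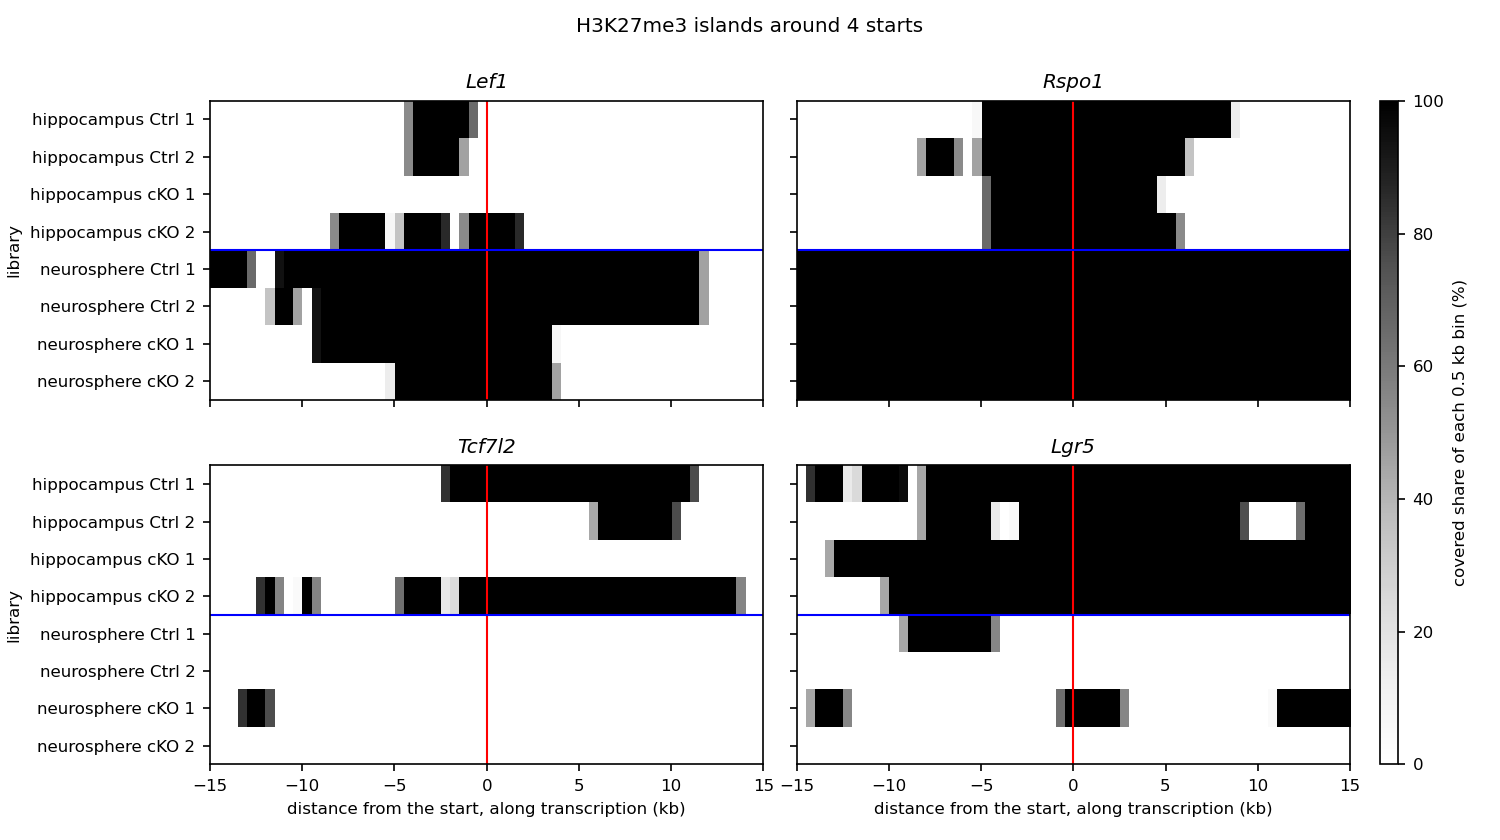
H3K27me3 islands from 15 kb before to 15 kb after the start of Lef1, Rspo1, Tcf7l2 and Lgr5 (distance along transcription in kb), as the covered share of each 0.5 kb bin in 8 libraries; the red line marks the start and the blue line divides hippocampus (above) from neurospheres (below). The Lef1 island of the 2 cKO neurosphere libraries ends 3.53 and 3.73 kb after the start and that of the 2 Ctrl libraries at 11.7 kb.

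In whole hippocampus the same Lef1 promoter carried far less H3K27me3. A 3.6 kb and a 3 kb island lay wholly upstream of the start in the Ctrl libraries. The first cKO library had no island in the promoter and the second had a 3.2 kb island across the start. Gene body coverage was 0%, 0% and 0% in the first 3 of these libraries and 1.69% in the last. Over the 8 libraries promoter coverage was higher in every neurosphere library than in every hippocampus library, with means of 100% ± 0 and 32.9% ± 34.2 (SD, n = 4 each). The exact permutation test, stratified by genotype and two-sided, gave p = 0.0556, the smallest that its 36 splits allow, and an adjusted p of 0.324 over all genes. Lef1 was 1 of 10 members higher without overlap, beside 5.85% of all genes. Where each library was reduced to its densest islands until all 8 covered the same length, the difference was 37.1 percentage points in place of 67.1.

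H2AK119ub1 at Lef1 in neurospheres was called over 14.8 and 15.4 kb across the start in the Ctrl libraries, over 4.6 kb in the first cKO library and not at the promoter in the second. The merged region held 969 and 705 counts in Ctrl against 229 and 101 in cKO. Its edgeR log2 fold change was -1.78 ± 0.79 with an adjusted p of 1.00 over 6060 regions. None of these passed (0%), while 0.891% were lower and 0.776% higher at an unadjusted p under 0.05. Per kb of called length and centred on the median region, the log2 fold change was -0.18 with an adjusted p of 0.911. Lef1 was the 1 member with promoter coverage lower in cKO without overlap, beside 3.75% of all genes. Of the 60 other Wnt genes 8 were lower in the same way (for example Wnt6, Fzd4, Fzd5, Lgr4 and Tle3), and 0 higher. No member was higher, beside 2.13% of all genes.

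H3K36me2 did not touch the Lef1 promoter in any library but filled much of the gene in neurospheres. Its gene body coverage was 58.3% and 32.7% in Ctrl against 73.6% and 37.8% in cKO, with overlap between the genotypes. In hippocampus it was 9.13% and 4.39% in Ctrl against 3.34% and 3.51% in cKO, which was lower without overlap, as for 2.29% of all genes. In neurospheres the first H3K36me2 island inside the gene began 5.73 and 18.3 kb after the start in Ctrl against 5.73 and 7.13 kb after it in cKO. Between the promoter and the 3′ end, H3K27me3 and H3K36me2 islands shared 3.6 and 4.8 kb in the Ctrl neurosphere libraries and 0 kb in both cKO libraries.

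Tcf7l2, whose protein is the TCF factor best known from intestinal crypts and the thalamus (ENSMUSG00000024985.19, chr19:55741820-55933654, plus strand), differed between the sources in H3K27me3 and in the extent of H3K36me2. H3K36me2 and H2AK119ub1 lay in the Tcf7l2 body in all 4 libraries of each source. H3K27me3 covered 21.9% and 13.7% of its body in Ctrl hippocampus against 17.1% and 29.6% in cKO hippocampus, and 0% in all 4 neurosphere libraries, which were the deeper ones. At the promoter, H3K27me3 coverage was 100% and 0% in Ctrl against 0% and 90.5% in cKO hippocampus, so libraries of the same genotype disagreed fully. Tcf7l2 and Lgr5 were the 2 of 10 members with lower gene body coverage in every neurosphere library, beside 1.61% of all genes. For Tcf7l2 the stratified exact permutation test gave p = 0.0556 and an adjusted p of 0.200 over all genes, the smallest possible here.

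H3K36me2 took the reverse course at Tcf7l2. It covered 16.5%, 12%, 17.6% and 19.8% of the body in the hippocampus libraries (Ctrl, then cKO) and 84.2%, 87.9%, 84.7% and 73.9% in the neurosphere libraries. The largest region held 463, 370, 691 and 745 counts in hippocampus and 6280, 5773, 5183 and 2747 in neurospheres, without overlap. All 3 regions of the gene that were called in all 8 libraries were higher in neurospheres by edgeR, with log2 fold changes of 1.55 ± 0.24, 1.18 ± 0.33 and 1.35 ± 0.36 and adjusted p of 0.0113, 0.0452 and 0.0403 over 5204 regions. Of all regions 5.38% were higher and 4.25% lower. Lef1, Tcf7l2 and Lgr5 were the 3 of 10 members with higher H3K36me2 body coverage without overlap, beside 16.6% of all genes.

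Relative to all regions, edgeR placed H2AK119ub1 counts of Tcf7l2 lower in neurospheres, while coverage overlapped between the sources. Mean promoter coverage was 73.6% in hippocampus and 21.25% in neurospheres (stratified exact permutation test, adjusted p = 0.845). Mean body coverage was 50.1% and 37.2% (adjusted p = 0.817 by the same test). The Tcf7l2 region across the promoter held 311, 1557, 535 and 1762 counts in hippocampus and 2140, 476, 334 and 1267 in neurospheres, in libraries that mostly hold more counts overall. The counts overlap between the sources before scaling. Relative to all regions the log2 fold change was -1.65 ± 0.41 (edgeR adjusted p = 0.0159 over 1555 regions), and a second region toward the 3′ end gave -1.80 ± 0.36 with an adjusted p of 0.00694. Of all regions 11.2% were lower and 9.32% higher. With Ctrl libraries alone the adjusted p of the promoter region was 0.350, and it was 0.0634 without the second Ctrl hippocampus library and 0.0644 without the first cKO neurosphere library by the same edgeR test.

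Between genotypes, the H2AK119ub1 region across the Tcf7l2 start in neurospheres held 625 and 476 counts in Ctrl against 61 and 150 in cKO, over 12.8 and 14 kb and over 1.6 and 4.8 kb of called length. Its edgeR log2 fold change was -2.13 ± 0.66 with an adjusted p of 1.00, and DESeq2's Wald test gave an adjusted p of 0.0105. Per kb of called length the log2 fold change was 0.03 once centred on the median region, so the counts differed along with the called length. Coverage of the promoter itself was 80.5% and 0% in Ctrl against 4.53% and 0% in cKO, which overlapped. In H3K36me2 of neurospheres, the Tcf7l2 promoter was covered by 10% and 65% in Ctrl and by 0% in both cKO libraries, the 1 member lower without overlap, beside 2.76% of all genes (2.08% were higher). This rests on the start of the gene record: at the most covered of all annotated starts of Tcf7l2 the cKO mean was higher, by 0.6125 percentage points. In hippocampus H2AK119ub1 the island at the Tcf7l2 promoter measured 1.4 and 13.4 kb in Ctrl against 3.6 and 37.6 kb in cKO, with relative densities of 1.19 and 1.24 and of 0.767 and 1.06. The density was lower without overlap for 1 of 2 members with a value (Tcf7l2), beside 5.17% of 348 promoters lower and 10.1% higher. Neither of the 2 differed in width, beside 2.59% lower and 0.575% higher.

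Tcf7, a factor of T cell development (ENSMUSG00000000782.15, chr11:52252371-52283014, minus strand), and Tcf7l1, whose product acts mostly as a repressor (ENSMUSG00000055799.13, chr6:72626378-72789254, minus strand), had H3K36me2 in the gene body in both sources, Tcf7 in 3 of 4 libraries of each and Tcf7l1 in 4 of 4. Tcf7 had H3K27me3 over 20% of its promoter in the second cKO hippocampus library and nowhere else. Its body was covered by H3K36me2 for 95.4% and 81.6% in Ctrl neurospheres, for 80.3% in the first cKO library and for 0% in the second. That second cKO library was the shallowest of the 4 H3K36me2 neurosphere libraries, with 10587042 counts in islands against 19827572 to 22021439 in the others. Tcf7 was lower without overlap in gene body coverage, beside 4.33% of all genes. Its merged region gave an edgeR log2 fold change of -1.02 ± 1.19 (adjusted p = 0.962 over 34454 regions). None of these passed (0%), while 0.676% were lower and 1.46% higher at an unadjusted p under 0.05.

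Tcf7l1 had H3K36me2 over 26.9% and 17.1% of its body in Ctrl hippocampus and over 43.6% and 48.7% in cKO hippocampus. With Tcf7l2 and Rspo1 it made 3 of 10 members higher in cKO without overlap, beside 5.62% of all genes, and 8 of 60 other Wnt genes did the same. The 4 regions of Tcf7l1 called in all 4 hippocampus libraries had log2 fold changes between 0.01 and 1.08 and edgeR adjusted p of 0.968 or higher over 6447 regions, of which 0% passed and 2.31% were lower and 2.62% higher at an unadjusted p under 0.05. No promoter of a member differed without overlap in this mark, beside 0.524% of genes lower and 0.948% higher. In neurospheres H3K36me2 covered 77.3% and 86.9% of the body in Ctrl against 86.8% and 42.1% in cKO. H3K27me3 covered 10.8% and 13.4% of the body in Ctrl neurospheres and 20.5% and 8.23% in cKO, in islands that began 20.3 kb or more after the start. The first cKO library also had an upstream island over 21.35% of the promoter. In hippocampus H3K27me3 covered 0% and 73.65% of the Tcf7l1 promoter in Ctrl against 0% and 33.65% in cKO, with overlap, while H3K36me2 covered 0% in all 4 libraries. In H2AK119ub1 of neurospheres a region of its body held 571 and 327 counts in Ctrl against 467 and 1609 in cKO, with an edgeR log2 fold change of 1.48 ± 0.64 and an adjusted p of 1.00.

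**Figure D3:**
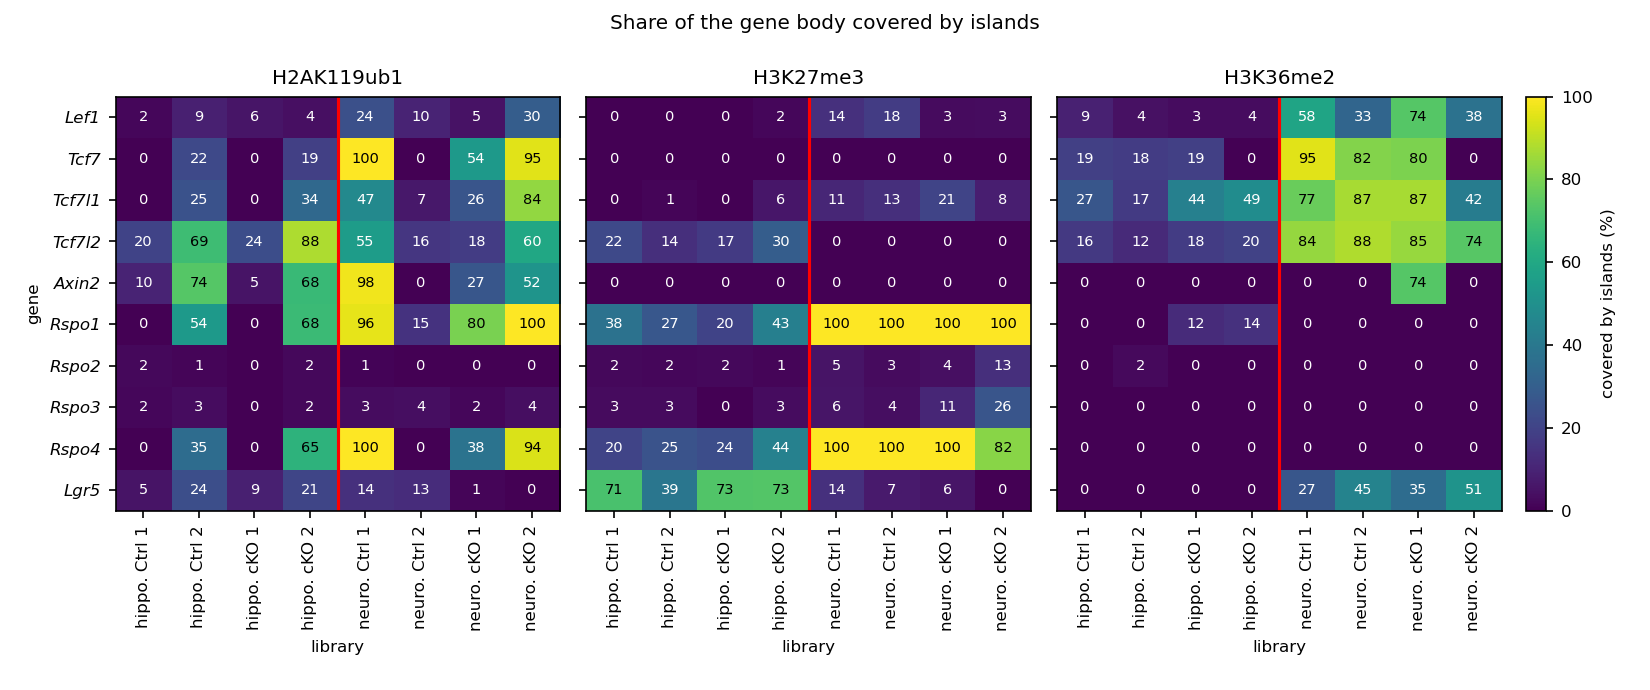
Share of each gene body (percent) covered by islands, for the 10 genes (rows) in the 8 libraries of each mark (columns; hippocampus left and neurospheres right of the red line). Rspo1 and Rspo4 bodies are at 82.4 to 100% for H3K27me3 in neurospheres, and Tcf7l2 and Lgr5 have less H3K27me3 and more H3K36me2 coverage in neurospheres than in hippocampus.

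Axin2 (ENSMUSG00000000142.15, chr11:108920349-108950783, plus strand) was the member with the least Polycomb mark at its promoter, taken at the start of the gene record. H2AK119ub1 reached the promoter in 1 of 4 hippocampus libraries (18.7%) and in 1 of 4 neurosphere libraries (33.7%), and H3K36me2 in the first cKO neurosphere library (36.3%). Axin2 depended on the start used. Its H2AK119ub1 difference, cKO minus Ctrl, was -9.35 percentage points in hippocampus and -16.85 in neurospheres at this start. At the most covered annotated start it was 13.8 and 15.25. Its gene body was nevertheless covered by H2AK119ub1 for 9.86% and 73.6% in Ctrl against 5.26% and 67.7% in cKO hippocampus, and for 97.9% and 0% in Ctrl against 26.9% and 51.9% in cKO neurospheres. These values overlapped between genotypes in both sources. In hippocampus the first library of each genotype, low in both, was the shallow one, and the part of depth was not tested. H3K36me2 islands flanked the gene: the neurosphere region that ends near its start spanned 60, 59.4, 61.8 and 56 kb of called length in the 4 libraries (Ctrl, then cKO), with an edgeR log2 fold change of -0.21 ± 0.47 (adjusted p = 0.964). Against hippocampus, this flank gave 1.14 ± 0.39 (edgeR adjusted p = 0.0876), which did not pass.

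Rspo1 (ENSMUSG00000028871.7, chr4:124986430-125009099, plus strand) had the widest H3K27me3 promoter island of the R-spondin genes in Ctrl neurospheres. The island at its promoter measured 13.6 and 11.4 kb in Ctrl against 9.4 and 10.6 kb in cKO hippocampus, and 80.8 and 61.8 kb in Ctrl against 69.4 and 74.4 kb in cKO neurospheres, where it covered 100% of the gene and held 2 protein-coding starts. In hippocampus its width was lower in cKO without overlap, as was that of Rspo2 (2 of 5 members with a value, beside 4.75% of 1833 promoters). In neurospheres the Rspo1 region held 7899 and 6419 counts in Ctrl against 4925 and 4842 in cKO, with an edgeR log2 fold change of -0.55 ± 0.16 (adjusted p = 0.215). In hippocampus the 4 libraries held 529, 440, 420 and 1035 counts there, below all neurosphere libraries. The region was higher in neurospheres, by 1.94 ± 0.30 on the log2 scale (edgeR adjusted p = 0.000939 over 2373 regions), beside 21.3% of regions higher and 21.2% lower. The adjusted p stayed at or under 0.00931 in every edgeR alternative run for this region. None of these divided the counts by called length. The islands were much narrower in hippocampus, as given above, and the part of called length was not tested.

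Rspo4 (ENSMUSG00000032852.3, chr2:151842927-151874668, plus strand), the R-spondin gene known from nail development, had a similar domain. Its promoter island measured 44.6 and 37.8 kb in Ctrl against 74.0 and 122.8 kb in cKO neurospheres, and 9, 6, 6.8 and 6.8 kb in the hippocampus libraries (Ctrl, then cKO). The wider cKO islands reached 40.7 and 99.9 kb before the start, against 6.13 and 5.13 kb in Ctrl. The merged region, which holds the neighbouring islands of Ctrl as well, showed little of this: its called length was 126.8, 118.8, 130.2 and 132 kb and its edgeR log2 fold change -0.25 ± 0.16 (adjusted p = 0.420). The Ctrl libraries thus had several islands over much of the stretch that 1 island spanned in cKO. From hippocampus to neurospheres its counts went from 1011, 417, 723 and 1598 to 7803, 6078, 5921 and 5622, and the region rose by 1.51 ± 0.23 on the log2 scale (edgeR adjusted p = 0.000988). The island at Rspo4 had a density of 1.03 to 1.16 times that of its library in neurospheres. When only the densest islands were kept, up to an equal covered length in all 8 libraries, promoter coverage was 70.8 percentage points lower in neurospheres than in hippocampus, the reverse of the call on counts.

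Rspo3 (ENSMUSG00000019880.10, chr10:29452416-29535867, minus strand) and Rspo2 (ENSMUSG00000051920.7, chr15:43020794-43170826, minus strand), whose products act in limb, lung and vessel development, had narrow H3K27me3 islands at the start. Rspo3 islands measured 2.4 and 3 kb in Ctrl against 2.8 and 6.4 kb in cKO hippocampus, and 6.4 and 4.8 kb in Ctrl against 6.6 and 12.2 kb in cKO neurospheres. Its region was higher in neurospheres than in hippocampus (79, 61, 102 and 226 counts in hippocampus, 805, 548, 423 and 685 in neurospheres; log2 fold change 1.14 ± 0.34, edgeR adjusted p = 0.0234). The call rested on single libraries: leaving out 1 of 5 of the 8 libraries in turn brought the adjusted p to between 0.0543 and 0.0683. Rspo2 islands measured 7.4 and 7.4 kb in Ctrl against 5.2 and 4.4 kb in cKO hippocampus, and 6.2 and 4.8 kb in Ctrl against 7 and 15.2 kb in cKO neurospheres. Its edgeR log2 fold change between genotypes was -1.12 ± 0.46 in hippocampus (adjusted p = 0.994 over 4387 regions) and 0.07 ± 0.32 in neurospheres (adjusted p = 0.919). In hippocampus 0% of regions passed, and Rspo2 was among the 1.41% that were lower at an unadjusted p under 0.05, beside 2.12% higher. Between the sources the Rspo2 region did not pass (-0.14 ± 0.39, edgeR adjusted p = 0.804).

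**Figure D4:**
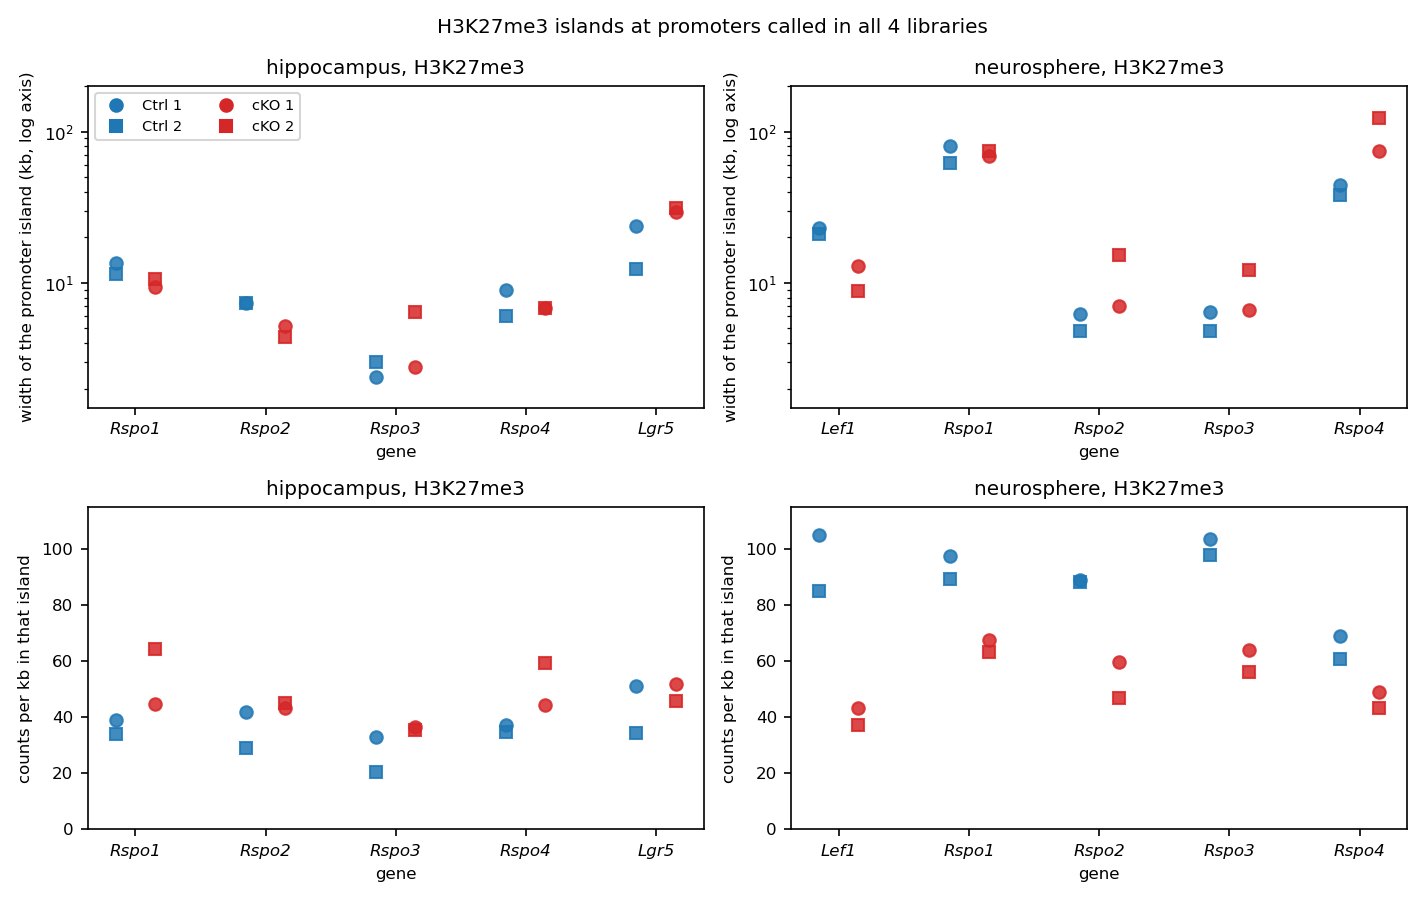
Width (upper row, kb on a log axis) and counts per kb (lower row) of the H3K27me3 island at each promoter that had one in all 4 libraries of a source; circles are the first and squares the second library, blue Ctrl and red cKO. In neurospheres counts per kb are lower in both cKO libraries for all 5 genes, while width is lower in cKO for Lef1 and higher for Rspo2, Rspo3 and Rspo4.

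Taking the 5 members with neurosphere islands in all 4 libraries, relative density was lower in both cKO libraries for 5 of 5 (Lef1, Rspo1, Rspo2, Rspo3 and Rspo4), beside 25.3% of 3401 promoters, and their median difference was -0.33 against -0.01 for all. Width was higher without overlap for 3 of 5 (Rspo2, Rspo3 and Rspo4), beside 28.3%, and lower for Lef1, beside 18.1%. Of 26 other Wnt genes with islands, 9 had a lower and 3 a higher relative density (22.1% of all promoters were higher), and 15 had narrower and 4 wider islands. In hippocampus 0 of 5 members differed in relative density without overlap, beside 2.29% of promoters lower and 24.7% higher. The neurosphere libraries of the 2 genotypes also differed as a whole, with 60.2 and 52.3 counts per kb of island in Ctrl against 43.2 and 42.0 in cKO, and relative density is the ratio to these values. Centring was chosen after seeing the data. The edgeR test of density after centring called Lef1 alone of the 5, with adjusted p of 0.417 to 0.825 for the R-spondins. Before centring, when the median of all regions stood at -0.28 on the log2 scale, it also called Rspo1 (-0.47, adjusted p = 0.0324) and Rspo2 (-0.54, adjusted p = 0.0278), beside 13.3% of regions lower and 0.071% higher. No promoter coverage differed without overlap for a member in H3K27me3 of neurospheres, beside 5.33% of genes lower and 3.43% higher, or of hippocampus, beside 0.793% and 3.62%.

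H2AK119ub1 at Rspo1, Rspo3 and Rspo4 was mostly called in the deeper libraries. Over the 4 R-spondin promoters in hippocampus it was called in 10 of 16 gene and library pairs and in neurospheres in 9 of 16. Rspo1, for example, had coverage of 0% and 100% in Ctrl against 0% and 80.7% in cKO hippocampus, where the first library of each genotype was the shallow one. In neurospheres it had 100% and 0% in Ctrl against 75% and 100% in cKO. Rspo2 was the exception in hippocampus, with islands in all 4 libraries (75% and 59.4% in Ctrl, 50% and 79.4% in cKO). Without overlap there were 0 of 10 members in hippocampus promoters, beside 0.483% of genes lower and 0.579% higher, and 0 of 10 in gene bodies, beside 0.629% and 1.86%. The 3 promoter regions tested there (Lef1, Rspo2 and Tcf7l2) had edgeR adjusted p of 0.999 over 2750 regions, of which 0% passed and 0.509% were lower and 0.582% higher at an unadjusted p under 0.05. Merged regions at Rspo1, Rspo4 and Tcf7l1 in neurospheres had edgeR log2 fold changes of 0.53 to 0.56 with adjusted p of 1.00, and all 3 were below 0 without the second Ctrl library. Without the first Ctrl library, which leaves 1 Ctrl library assumed to vary like the cKO group, the Rspo4 region reached 3.90 (adjusted p = 0.000206) and the Rspo1 region 1.56 (adjusted p = 0.000342) by edgeR. In that setting 10.2% of all regions were called higher and 0.875% lower.

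H3K36me2 was nearly missing from the R-spondin genes. Neurosphere islands covered 0% of the body in 16 of 16 gene and library pairs. In hippocampus 3 of 16 pairs had any, which were the second Ctrl library at Rspo2 (2.4%) and both cKO libraries at Rspo1 (12.4% and 14.1%). Among all genes with H3K27me3 at the promoter in all 4 neurosphere libraries, 15.2% had H3K36me2 in the body in all 4, against 27.4% of genes with no H3K27me3 there. In hippocampus the order was the other way, 15.4% against 9.72%. Of the members, 1 of 5 with the promoter mark in neurospheres (Lef1) had it, and 0 of 5 in hippocampus. The shares are descriptions, since neighbouring genes share islands.

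Lgr5, the R-spondin receptor that marks adult stem cells of several epithelia (ENSMUSG00000020140.15, chr10:115450311-115587780, minus strand), had more H3K27me3 in hippocampus than in neurospheres, as Tcf7l2 did over its body. Its promoter was covered fully in all 4 hippocampus libraries and by 0%, 0%, 70.5% and 0% in the neurosphere libraries (Ctrl, then cKO). The island across its start measured 23.8 and 12.4 kb in Ctrl against 29.4 and 31.4 kb in cKO hippocampus, wider without overlap in cKO, beside 26.8% of promoters. Gene body coverage was 71.4%, 39.1%, 72.9% and 73.2% in hippocampus and 14.0%, 7.42%, 5.81% and 0% in neurospheres. The second Ctrl hippocampus library, with 1681001 counts in islands, was the shallowest of the 4, and its part in the difference was not tested.

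Against hippocampus, Lgr5 promoter H3K27me3 in neurospheres was 82.4 percentage points lower (100% ± 0 and 17.6% ± 35.3, SD, n = 4 each, stratified exact permutation p = 0.0556, adjusted p = 0.324 over all genes), the 1 member lower without overlap beside 1.25% of all genes. For H2AK119ub1 promoters no member separated the sources, beside 0.0501% of genes lower and 1.73% higher in neurospheres, and for its bodies none did, beside 0.501% and 5.43%. No region of Lgr5 was called in all 8 libraries, so that edgeR gave no value. H3K36me2 covered 0% of the body in all 4 hippocampus libraries and 26.8%, 44.7%, 35.2% and 51.2% in the neurosphere libraries, in 14 to 25 separate islands. No member promoter separated the sources in this mark, beside 0.0365% of genes lower and 3.18% higher, and no body was lower, beside 0.538%. Between genotypes Lgr5 was higher without overlap in cKO hippocampus in H3K27me3 body coverage (1 of 10 members, beside 6.76% of genes, with none lower, beside 0.948%), and the 4 regions of the gene tested by edgeR had log2 fold changes from -0.13 to 0.73 with adjusted p of 0.994. In neurosphere H2AK119ub1 the body was covered for 14.0% and 12.5% in Ctrl against 1.45% and 0% in cKO, the 1 member lower without overlap beside 4.23% of genes, with none higher, beside 4.82%. A region of 3.4, 1.4, 3.2 and 5 kb of called length in H3K36me2 gave a log2 fold change of 1.29 ± 0.41 between genotypes in neurospheres (edgeR adjusted p = 0.962), and the other 8 regions of the gene ranged from -0.46 to 0.62. No member body was higher without overlap in this mark, beside 4.62% of genes.

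**Figure D5:**
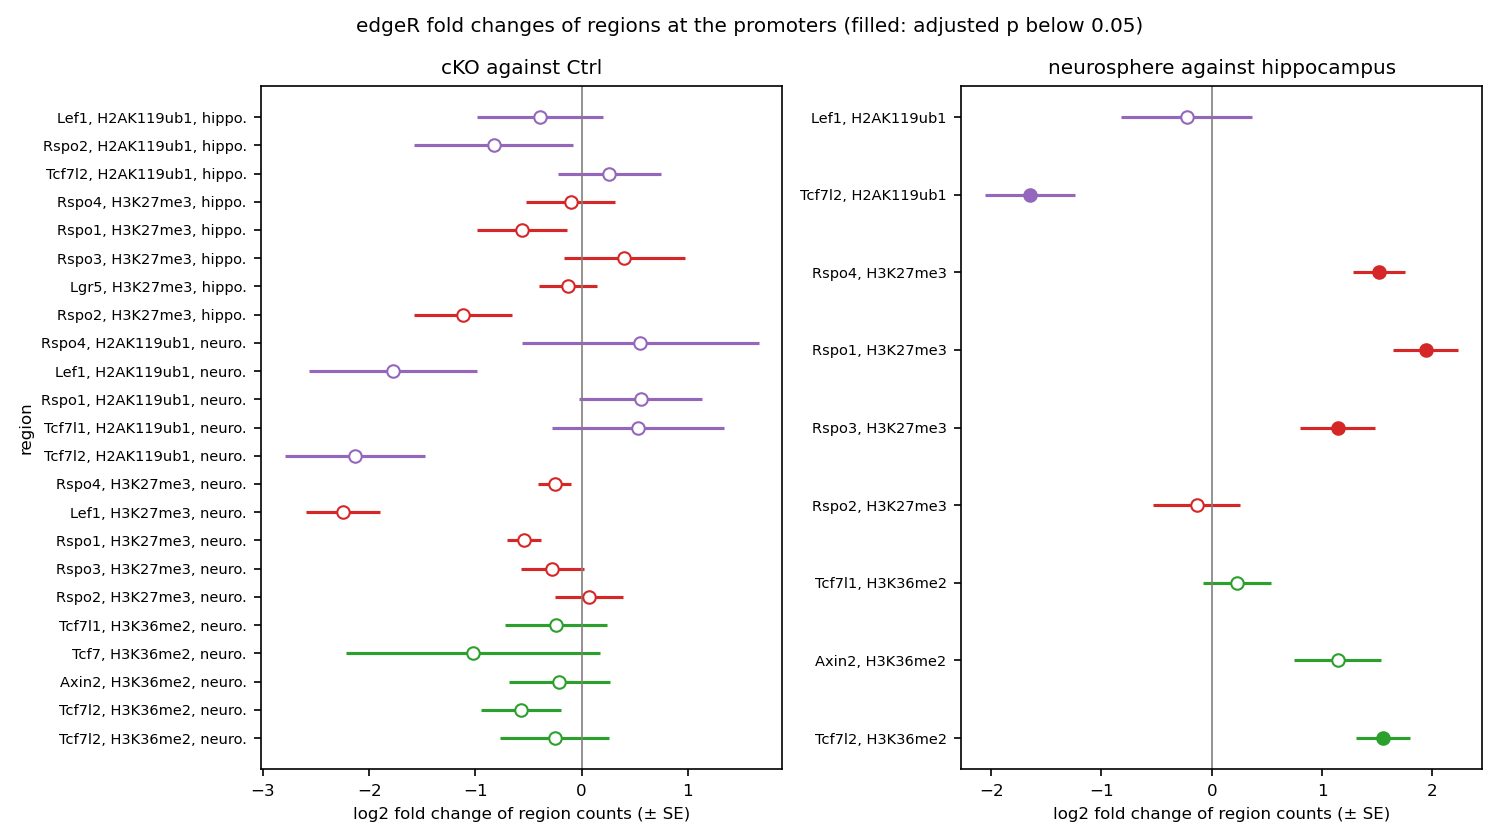
edgeR log2 fold changes (± SE) of merged regions that overlap a member's promoter, cKO against Ctrl within each source (left) and neurosphere against hippocampus (right); filled points passed an adjusted p of 0.05. No point is filled on the left, where Lef1 in neurosphere H3K27me3 is lowest at -2.25, and Rspo1, Rspo3, Rspo4 (H3K27me3, higher), Tcf7l2 (H3K36me2, higher, and H2AK119ub1, lower) are filled on the right.

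Between the sources, then, 6 of 10 members had more H3K27me3 over the gene body in every neurosphere library than in every hippocampus library (Lef1, Tcf7l1 and the 4 R-spondins), beside 10.7% of all genes, and 2 had less (Tcf7l2 and Lgr5). The other Wnt genes gave 8 of 60 higher and 5 of 60 lower. H3K27me3 lay in the body in all 4 neurosphere libraries for 6 of 10 members and for 19.7% of all genes. Members were thus more often marked genes, and the share among marked genes alone was not computed. The neurosphere libraries held 13195590 or more island counts and the hippocampus libraries of this mark 5525016 or fewer, and the part of depth and preparation in these differences cannot be told apart from the source. The interaction of genotype and source by edgeR called 0 regions (0%) in each mark. At an unadjusted p under 0.05, 5.52% of H3K27me3 regions were lower and 5.35% higher, among them Rspo2 (1.57 on the log2 scale, adjusted p = 0.400). In H2AK119ub1 these shares were 0.772% and 0.643%, and in H3K36me2 1.56% and 2.38%. For Lef1 in H2AK119ub1 the interaction was -1.92 with an edgeR adjusted p of 0.998.

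Patterns close to those of 3 members were sought over the 24 promoter coverage values, as the smallest Euclidean distance among protein-coding genes more than 100 kb away. Rspo1 was nearest to Fxyd7, Slc30a2 and Npw, at distances of 19.6, 19.6 and 21.8 percentage points, where the median over all genes was 341. Rspo4 was nearest to Guca1a, Gcm2 and Apoa5, at 28.8, 43.9 and 56.3. Rspo2 was nearest to Tbx5, C530025M09Rik and Stac, at 51.9, 71.6 and 83.2.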

How the data were processed

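Processed island files of 24 ChIP-seq libraries were analysed, and the 12 input libraries were not analysed here. As deposited by the authors, each file lists islands with raw read counts, in columns of chromosome, start, end and count. Per the methods and the labels, adaptors were trimmed with cutadapt, Bowtie2 2.4.5 aligned the reads to mm10, samtools dropped the duplicates, and SICER called islands in each library against input (window 200 bp, gap 600 bp, FDR 0.01). The versions of cutadapt and SICER are not given in the sources used here. Because islands were called in each library, a weak signal below the threshold has no count. Island number and width did not simply follow the counts. In neurosphere H3K27me3 the first Ctrl library held 17025504 counts with a median island of 2.6 kb. The second cKO library held 13502744 with a median of 5.4 kb. Precision is limited by the 2 libraries per group.

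Islands on non-standard chromosomes (9 in 5 libraries) were left out. Coverage of promoters (2 kb on each side of the start of the GENCODE vM21 gene record) and of gene bodies, the width of the island with most overlap with the promoter and its counts per kb were computed for 21938 protein-coding genes (Python 3.11.15, numpy 2.4.6, pandas 2.3.3). Relative density is the counts per kb of an island divided by that of all islands of its library. Merged regions with counts in every library were tested with edgeR 4.0.16 (quasi-likelihood, TMM, Benjamini-Hochberg, threshold 0.05, R 4.3.3), without the replicate number as a block, and the code was checked on simulated counts. Of 200 planted 4-fold changes at the dispersion fitted to each comparison, 8% were recovered in neurosphere H2AK119ub1 and 7.5% in neurosphere H3K36me2. The share was 32.5% in hippocampus H2AK119ub1, 42.5% in hippocampus H3K27me3, and 50.5% in hippocampus H3K36me2 and neurosphere H3K27me3. Between sources it was 85.5% to 99%. A genotype comparison without calls therefore does not show that a mark was unchanged. DESeq2 1.42.0, other scalings, shorter promoters, other starts, a minimum island width, an equal covered length, the replicate block and leaving out each library were the alternatives.

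All 10 members were named. Of 60 other Wnt pathway genes, counts were given, and up to 5 names where a member was named for the same difference. For the 3 members with the largest SD of promoter coverage, the 3 nearest genes were named. The members and the lists were chosen with earlier results of these data known.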

Additional observations from a re-analysis of the deposited data

Results flagged for a closer look

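The genotypes separated in opposite directions in the 2 sources for 2 members, and the difference between the sources was not tested on these measures. The share of all genes that separate in this way was not computed, so whether 2 members are many cannot be said. For Lgr5, H3K27me3 coverage of the gene body was higher in both cKO libraries than in both Ctrl libraries in hippocampus (mean difference 17.7821 percentage points) and lower in both in neurospheres (-7.79079 percentage points). Without the second Ctrl hippocampus library, whose 39.1% stands below the 71.4%, 72.9% and 73.2% of the others, the hippocampus difference is the small one between 71.4% and the 2 cKO values.

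For Rspo2, the H3K27me3 island at the promoter was narrower in both cKO libraries in hippocampus (-2.6 kb) and wider in both in neurospheres (5.6 kb). The counts of the Rspo2 region gave an interaction of genotype and source of 1.57 on the log2 scale, with an edgeR adjusted p of 0.400, so the counts did not pass the test of that difference. The wider of the 2 cKO neurosphere islands (15.2 kb) is that of the second library, and the first has 7 kb.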

How the results depend on the processing

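Of 1148 alternative values for 122 single results of members, 91 had the opposite sign, in 49 results. In 2 of them the reported value separated the genotypes or the alternative value passed the test. The Tcf7l2 promoter in neurosphere H3K36me2 was higher in cKO by 0.6125 percentage points at the most covered transcript start, and the Rspo2 region in neurosphere H3K27me3 was at -0.54 per kb of called length, where the median of all regions was -0.28. Centring on the median region was chosen after seeing the data, as were the replicate block and leaving out libraries between the sources. The causes were not tested.

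Members without overlap between genotypes changed in number as follows. The shares over all genes were not computed for these settings, so the counts have no reference and are not read as results about the members. Without 1 library, 1 value stands against 2, which separate more easily. At equal covered length, 1 promoter was lower in hippocampus H2AK119ub1 and 1 in hippocampus H3K27me3, bodies were 1 lower and 2 higher in hippocampus H2AK119ub1, 2 lower and 0 higher in hippocampus H3K27me3, 1 higher in neurosphere H2AK119ub1, 0 higher in neurosphere H3K27me3 and 2 lower in neurosphere H3K36me2. With islands of at least 2 kb, bodies were 0 higher in hippocampus H3K27me3, 0 lower in hippocampus H3K36me2, and 1 lower and 2 higher in neurosphere H3K27me3. The neurosphere H3K36me2 promoters gave 0 lower with 1 kb on each side or the most covered start, which gave 1 higher in hippocampus H3K36me2. Without 1 library, promoters were 0 to 5 lower and 0 to 4 higher in hippocampus H2AK119ub1, 0 to 3 and 0 to 3 in hippocampus H3K27me3, 0 to 1 and 0 to 0 in hippocampus H3K36me2, 1 to 5 and 0 to 3 in neurosphere H2AK119ub1, 0 to 0 and 0 to 2 in neurosphere H3K27me3, and 1 to 3 and 0 to 4 in neurosphere H3K36me2. Bodies were 0 to 5 and 0 to 5, 0 to 2 and 1 to 7, 1 to 2 and 3 to 3, 1 to 5 and 0 to 6, 2 to 4 and 1 to 2, and 1 to 3 and 1 to 2 in the same order.

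edgeR called 0 regions between genotypes in all 6 comparisons. DESeq2 called 3 lower in hippocampus H3K27me3, 8 lower and 9 higher in hippocampus H3K36me2, 15 and 17 in neurosphere H2AK119ub1, 247 and 487 in neurosphere H3K27me3, and 22 and 61 in neurosphere H3K36me2. Per kb of called length edgeR called 1 lower in hippocampus H3K36me2 and 1496 lower and 8 higher in neurosphere H3K27me3, and after centring 1 lower in hippocampus H3K36me2, 1 lower in neurosphere H2AK119ub1, and 205 lower and 35 higher in neurosphere H3K27me3. Without 1 library it called 0 to 23 lower in hippocampus H3K27me3, 0 to 53 lower and 0 to 618 higher in neurosphere H2AK119ub1 (highest without the first Ctrl library), and in neurosphere H3K27me3 0 to 1641 and 0 to 768 and in neurosphere H3K36me2 0 to 1661 and 0 to 378 (both highest without the first cKO library). A group left with 1 library is assumed to vary like the other. Between the sources, Ctrl libraries alone gave 11 lower and 6 higher regions in H2AK119ub1 and 86 and 184 in H3K36me2. Without 1 library the counts ran from 98 to 219 lower and 58 to 188 higher in H2AK119ub1, from 343 to 512 and 376 to 521 in H3K27me3, and from 20 to 735 and 43 to 752 in H3K36me2.

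The labels do not say what a shared replicate number stands for, so it was not taken as a pairing. The correlation of the differences between replicates 1 and 2 of Ctrl and cKO ran from -0.32 to 0.33 over the 6 comparisons. With the replicate number as a block, edgeR called 8 regions lower and 1 higher in hippocampus H3K27me3 and 0 in the other genotype comparisons. The block gave 164 lower and 133 higher between sources in H2AK119ub1, 456 and 478 in H3K27me3, and 278 and 313 in H3K36me2, and changed no member's call. The Tcf7 region in neurosphere H3K36me2 passed without the first cKO library (-4.12, edgeR adjusted p = 0.0340), and the Axin2 flank between sources without the second cKO neurosphere library (edgeR adjusted p = 0.0396).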
